A study of Mus musculus with 6 samples.

Results

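PI3K, AKT and mTOR pathway genes were followed in injured mouse carotid arteries through 9 genes, namely the PI3K catalytic subunit genes Pik3ca and Pik3cg, the PI3K regulatory subunit gene Pik3r1, the kinase genes Pdpk1, Akt1, Akt2 and Mtor, and the regulators Tsc2 and Rptor. They were chosen by name, with earlier results of these data known. Every probe set that the array annotation pairs with exactly 1 of these symbols was used. This gave 28 of the 34945 probe sets of a single gene and 9 of 18193 genes. The array experiment asked how forced expression of IRF9, a transcription factor of the interferon pathway, in smooth muscle cells changes the RNA of an injured artery. SMC-IRF9-TG mice carry the IRF9 cDNA with an HA tag and an SV40 polyadenylation signal under the SM22α promoter, which drives expression in smooth muscle cells, and NTG mice are the controls without the transgene. All mice were C57BL/6 by the labels and C57BL/6J by the study's methods, which give males of 10 to 12 weeks. Carotid arteries were taken 14 days after wire injury in both genotypes, so all 6 arrays come from injured vessels, and uninjured arteries are not analysed here. Each genotype had 3 arrays, and each array held 400 ng of RNA from a pool of 3 to 5 vessels. As the mice behind each pool are not named, p-values cover only how much these pools vary, which may be partly technical.

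Growth factor and insulin receptors recruit class I PI3K, a catalytic subunit bound to a regulatory subunit, to the membrane, where it makes the lipid PIP3. PIP3 draws PDK1 and AKT to the membrane, PDK1 phosphorylates AKT, and AKT inhibits the TSC complex, which otherwise keeps RHEB from activating mTORC1, the complex of mTOR and RAPTOR. In the artery wall this route is known for driving growth and proliferation of smooth muscle cells after injury. It is regulated mainly by phosphorylation, which an RNA array does not measure.

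The values are deposited RMA levels on the log2 scale, so a difference of 1 is a 2-fold difference, and all differences below are SMC-IRF9-TG minus NTG. A probe set was called when the limma p, adjusted by Benjamini-Hochberg over all 45037 probe sets tested, was under 0.05. Of the 28 probe sets, 2 were called higher and 0 lower in SMC-IRF9-TG arteries, 1 of Akt2 and 1 of Pik3r1. Across the array 2.75% of probe sets were called, 2.37% higher and 0.373% lower. Without adjustment 10 of the 28 had a limma p under 0.05, 6 higher and 4 lower, and so did 10061 of all 45037 probe sets in either direction. The median difference was 0.19 over the 28 probe sets and -0.13 over all probe sets tested. The 3 SMC-IRF9-TG pools lay wholly above the 3 NTG pools for 6 of the 28 probe sets and wholly below for another 6, against 12.1% and 19.2% of all probe sets. Separation of 3 against 3 gives the smallest 2-sided p of an exact permutation test, 0.1.

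**Figure D1:**
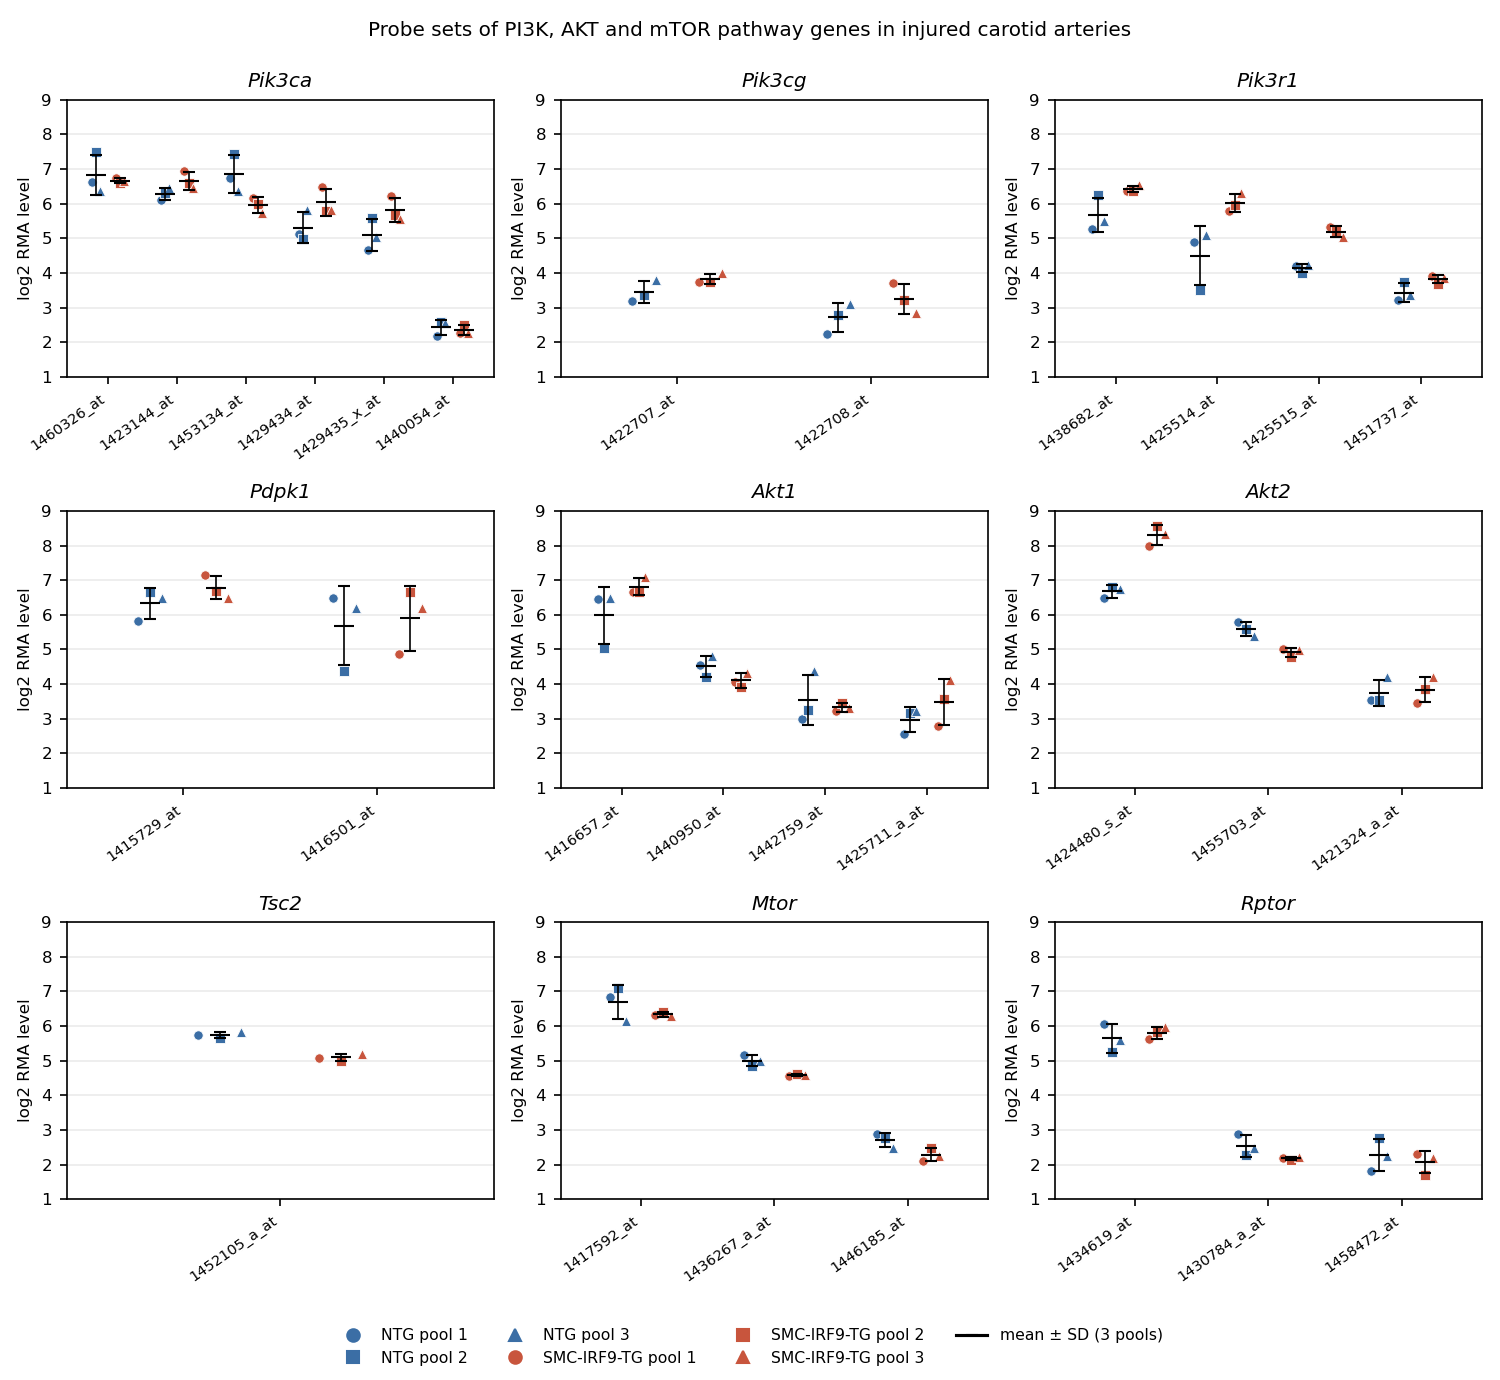
Levels of the 28 probe sets on the log2 RMA scale (y axis), one panel per gene and one position per probe set, with a point for each pool, NTG in blue and SMC-IRF9-TG in red, and the mean ± SD of 3 pools in black. The 2 called probe sets, 1424480_s_at of Akt2 and 1425515_at of Pik3r1, are among the 12 of 28 with separate groups. Probe sets of Pik3ca, Akt1 and Akt2 did not all go the same way, and some overlap.

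The arrays differed in ways other than genotype. Arrays of SMC-IRF9-TG mice correlated with each other at r of 0.98 to 0.985 and those of NTG mice at 0.927 to 0.955. The pool labelled NTG 2 stood apart in the gap between 3′ and 5′ control probe sets, which was 7.09 for Actb against 1.56 to 3.04 in the other 5 pools. The pools labelled NTG 1 and NTG 2 had Xist levels of 9.94 and 9.50, against 2.94 to 4.08 in the other 4, although the methods give males. The only Irf9 probe set of the annotation differed by 0.30 (SE 0.23, limma adjusted p = 0.436), and whether it covers the transgene is not stated in the sources used here, so it does not check the labels. The spiked poly-A controls averaged 5.08 and 4.56 in SMC-IRF9-TG pools 1 and 2, 9.26 in SMC-IRF9-TG pool 3 and 7.68 to 11.8 in NTG pools. Of 13 macrophage markers 12 were called higher in SMC-IRF9-TG arteries and all 13 had separate groups, with a mean level over the list of 3.65 to 4.25 in NTG and 7.69 to 8.06 in SMC-IRF9-TG pools. Lyz2 (lysozyme) differed by 5.05 and Csf1r (the CSF1 receptor) by 3.56. Of 7 fibroblast markers 4 were called higher, and 0 of 9 contractile smooth muscle markers were called. Of the 6 neutrophil markers 0 were called. S100a8, a calprotectin subunit gene (limma adjusted p = 0.103), read 8.84, 9.99 and 4.34 in SMC-IRF9-TG pools against 2.56 to 4.07 in NTG pools. For this gene SMC-IRF9-TG pools 1 and 2 stood apart from pool 3, and S100a9, Ngp and Camp had the same split. Cxcr2 differed by -0.40 with all transgenic pools lower, and Mmp8 by 0.11 with overlapping groups. The mean level over the neutrophil list was 3.33 to 3.60 in NTG and 3.54 to 6.39 in SMC-IRF9-TG pools. The part of these lists and controls in the values of the pathway genes was not tested. In such bulk samples fewer cells of a type and less RNA per cell cannot be told apart.

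Akt2 encodes an AKT kinase known for its part in insulin signalling, and Pik3r1 encodes p85α, the regulatory subunit that binds and stabilises the catalytic subunit. As these were the only genes with a called probe set, sequence around their annotated starts is shown, from 250 bases before to 50 bases after the start, 5′ to 3′ on the gene's strand, from RefSeq on GRCm38.p6. Capitals mark GAAA and its reverse complement TTTC, the core that IRF proteins are known to bind. Akt2 has 4 annotated windows, of which only the first is shown, on chr7:27591302-27591601, plus strand, and Pik3r1 has windows on chr13:101768168-101768467 and chr13:101692581-101692880, both on the minus strand.
Akt2, first window: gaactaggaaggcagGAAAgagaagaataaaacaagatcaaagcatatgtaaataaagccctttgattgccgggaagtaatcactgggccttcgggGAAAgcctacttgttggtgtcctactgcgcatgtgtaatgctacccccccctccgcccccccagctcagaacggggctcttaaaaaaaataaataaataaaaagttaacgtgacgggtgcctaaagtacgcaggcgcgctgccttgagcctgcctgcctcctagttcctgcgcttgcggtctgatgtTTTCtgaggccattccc
Pik3r1, upstream window: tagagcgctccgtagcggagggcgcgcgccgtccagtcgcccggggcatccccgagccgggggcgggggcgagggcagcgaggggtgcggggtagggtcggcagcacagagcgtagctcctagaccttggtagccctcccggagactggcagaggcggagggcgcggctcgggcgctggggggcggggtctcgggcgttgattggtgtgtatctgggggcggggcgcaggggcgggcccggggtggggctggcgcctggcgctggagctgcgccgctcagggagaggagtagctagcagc
Pik3r1, downstream window: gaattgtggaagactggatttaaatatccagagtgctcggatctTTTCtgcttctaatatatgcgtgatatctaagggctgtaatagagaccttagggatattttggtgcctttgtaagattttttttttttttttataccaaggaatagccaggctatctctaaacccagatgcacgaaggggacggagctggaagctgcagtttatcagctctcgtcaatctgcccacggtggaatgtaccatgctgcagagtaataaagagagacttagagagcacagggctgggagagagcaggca
The Akt2 window shown held GAAA or TTTC 3 times and the 3 others 1, 2 and 3 times, the upstream Pik3r1 window 0 times and the downstream one 1 time. Over the 9 genes, 14 of 16 windows held GAAA on either strand, and so did 89.2% of the 32851 windows of all genes. A pair of GAAA copies separated by 2 bases, searched on both strands, was found in 0 of the 16 windows and in 3.44% of all. These are matches of letters and do not measure binding.

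Akt2 had 1 probe set clearly higher, 1 lower in every SMC-IRF9-TG pool without passing the test, and 1 with overlapping groups. Probe set 1424480_s_at read 6.47, 6.82 and 6.75 in NTG and 7.99, 8.58 and 8.34 in SMC-IRF9-TG pools. The lowest transgenic pool lay more than a log2 unit above the highest control pool. The mean rose from 6.68 ± 0.18 to 8.30 ± 0.29 (SD, n = 3 each), a difference of 1.63 with SE 0.22 and a 3.09-fold higher level (limma adjusted p = 0.00919). The suffix _s_at marks, in Affymetrix naming, probes that can match more than 1 transcript, which need not be of the same gene, so its level may not be that of Akt2 alone. Leaving out 1 pool at a time gave differences of 1.49 to 1.78, and the call was lost only without SMC-IRF9-TG pool 2 (limma adjusted p = 0.0562). With both NTG pools of high Xist left out the difference was 1.56, a fit with 1 control array for which no p-value is given. The methods' t-test on all 6 arrays gave an adjusted p of 0.108, which did not pass.

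Probe set 1455703_at of Akt2 read 5.79, 5.59 and 5.38 in NTG pools and 5.00, 4.78 and 4.98 in SMC-IRF9-TG pools, so the transgenic pools all lay below the controls. Its difference was -0.67, with a 95% interval from -1.12 to -0.21 (limma adjusted p = 0.116). Probe set 1421324_a_at read 3.53, 3.55 and 4.19 in NTG pools and 3.47, 3.86 and 4.20 in SMC-IRF9-TG pools, which overlapped almost fully. Its difference was 0.087, with an interval from -0.53 to 0.70.

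The probe sets of Akt2 differed from each other in their difference between genotypes. For each gene with several probe sets, the brightest was set against each of the others within each array and the resulting 16752 pairs were fitted with limma across the array. Of the 19 pairs in the pathway genes 2 were called, both of Akt2, against 4.08% of all pairs. Probe set 1424480_s_at exceeded 1455703_at by 1.09 in NTG and by 3.38 in SMC-IRF9-TG arteries, a difference of 2.29 (SE 0.32, limma adjusted p = 0.0137). It exceeded 1421324_a_at by 2.92 and 4.46, a difference of 1.54 (SE 0.30, limma adjusted p = 0.0314). The first call was lost when any SMC-IRF9-TG pool was left out and the second when NTG pool 1 or any SMC-IRF9-TG pool was left out, with differences of 2.08 to 2.49 and 1.36 to 1.71. The 3 Akt2 probe sets were made from 3 different source sequences, and no source used here gives their positions in the Akt2 transcripts. The mean of the 3 probe sets differed by 0.35 (SE 0.16) and was not called (limma adjusted p = 0.23).

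**Figure D2:**
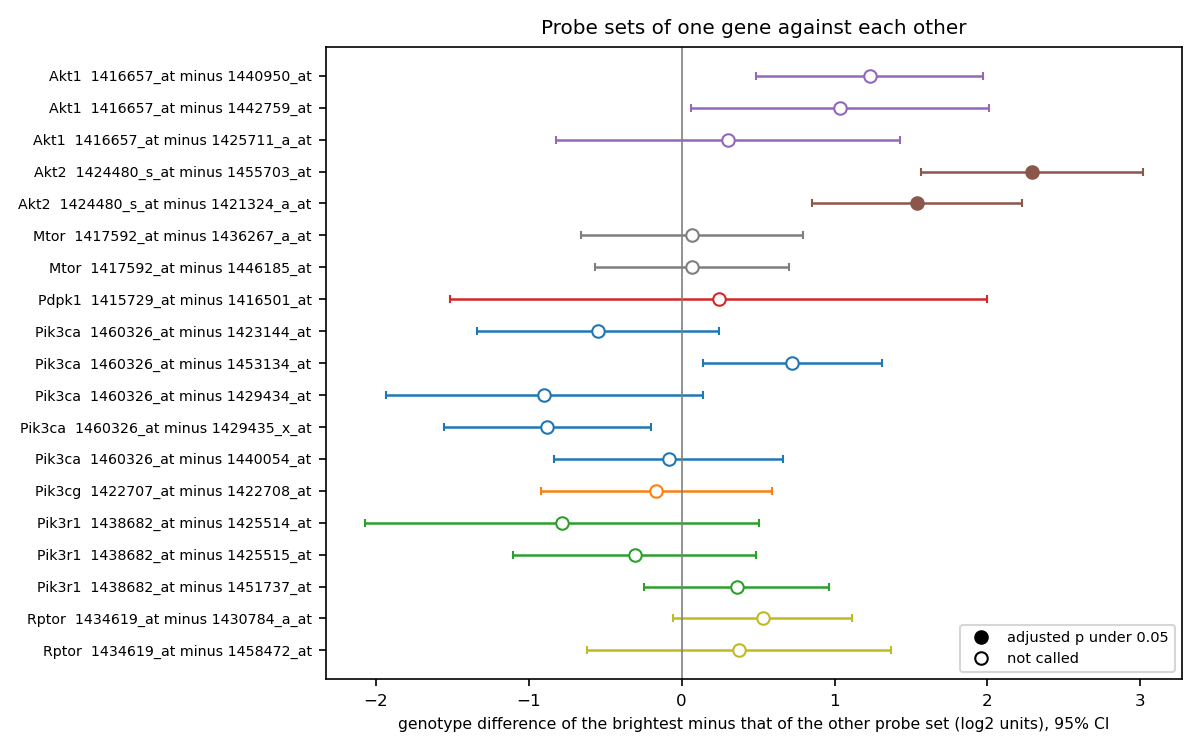
Difference between genotypes of the brightest probe set of a gene minus that of each other probe set (x axis, log2 units) with its 95% confidence interval, for the 19 pairs of 8 genes. The 2 pairs with adjusted p under 0.05, shown filled, are both of Akt2, at 2.29 and 1.54.

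Akt1, a broadly expressed AKT kinase gene, had 4 probe sets from 4 source sequences, 2 with a positive and 2 with a negative difference, and none was called. The brightest, 1416657_at, read 6.45, 5.03 and 6.48 in NTG pools and 6.67, 6.66 and 7.09 in SMC-IRF9-TG pools. All transgenic pools lay above the controls, of which NTG pool 2 was far the lowest. The difference was 0.82 (95% interval from -0.055 to 1.69, limma adjusted p = 0.245), and 0.34 without NTG pool 2. The dimmer 1440950_at and 1442759_at differed by -0.41 and -0.22 and 1425711_a_at by 0.51, with overlapping groups in each. The genotype differences of 1416657_at and 1440950_at differed by 1.23 (SE 0.33, limma adjusted p = 0.0688), with the genotypes separate but without passing the test. Pdpk1, which encodes PDK1, had differences of 0.46 for 1415729_at and 0.21 for 1416501_at. The second spanned 4.39 to 6.49 in NTG pools and 4.86 to 6.67 in SMC-IRF9-TG pools, so its 95% interval was wide, from -1.17 to 1.60.

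Pik3r1 was the only one of the 9 genes whose probe sets, 4 in number, were all higher in the mean with separate groups in 3 of them. Probe set 1425515_at read 4.19, 4.01 and 4.22 in NTG pools and 5.34, 5.21 and 5.03 in SMC-IRF9-TG pools. The groups were clearly apart, at 4.14 ± 0.12 and 5.19 ± 0.15 (SD, n = 3 each), a difference of 1.05 with SE 0.19 and a 2.07-fold higher level (limma adjusted p = 0.0278). Probe set 1425514_at read 4.90, 3.51 and 5.09 in NTG pools and 5.80, 5.97 and 6.31 in SMC-IRF9-TG pools. Its groups were apart too, with a larger difference of 1.53 but a control spread of 0.86 (SD), and it did not pass (limma adjusted p = 0.0839). Without NTG pool 2, its lowest, the difference was 1.03 (limma adjusted p = 0.0517).

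The brightest Pik3r1 probe set, 1438682_at, read 5.28, 6.24 and 5.51 in NTG pools and 6.36, 6.37 and 6.53 in SMC-IRF9-TG pools, again without overlap. Its difference of 0.74 did not pass (limma adjusted p = 0.163), and without NTG pool 2, here the highest control, it was 1.03 and was called (limma adjusted p = 0.0344). Probe set 1451737_at differed by 0.38 (95% interval from -0.089 to 0.86) with overlapping groups. No Pik3r1 pair was called, with intervals from -2.07 to 0.50 for the widest and from -0.24 to 0.96 for the narrowest. The mean of the 4 probe sets differed by 0.93 (SE 0.15, limma adjusted p = 0.0167), the only gene of the 9 called when each of the 18193 genes was taken by the mean of its probe sets, a fit that called 3.17% of genes. Of the 4, 3 share a source sequence, so they are not 4 independent readings. The call of 1425515_at was lost without NTG pool 1 and without any SMC-IRF9-TG pool, with differences of 0.98 to 1.13 over the 6 pools left out and adjusted p up to 0.146. Its difference was 0.97 without both NTG pools of high Xist, which leaves 1 control array. After quantile normalization it was 0.89 and did not pass (limma adjusted p = 0.0577).

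Pik3ca, which encodes the catalytic subunit p110α, had 6 probe sets from 3 source sequences, 3 above and 3 below 0, and none was called. Probe set 1453134_at read 6.75, 7.45 and 6.38 in NTG pools and 6.17, 5.98 and 5.74 in SMC-IRF9-TG pools, all lower in the transgenic group. Its difference was -0.89 (95% interval from -1.55 to -0.23, limma adjusted p = 0.138). Against it, 1429434_at and 1429435_x_at were higher by 0.73 and 0.71 (limma adjusted p = 0.193 and 0.198), each with pools of the genotypes touching. These 3 share a source sequence, and still the lower and the higher ones had intervals on opposite sides of 0. Probe set 1423144_at read 6.10, 6.31 and 6.44 in NTG pools and 6.94, 6.59 and 6.45 in SMC-IRF9-TG pools, barely separate, and differed by 0.38. The brightest, 1460326_at, differed by -0.17 with NTG pools from 6.38 to 7.49 around transgenic pools from 6.60 to 6.75, and its difference was 0.16 without NTG pool 2. In pairs the genotype difference of the brightest minus that of 1453134_at was 0.72, and minus that of 1429435_x_at it was -0.88. Neither passed (limma adjusted p = 0.137 and 0.123). Pik3cg, which encodes the p110γ subunit known from leukocytes, had low levels of 2.25 to 4.01 and differences of 0.38 (95% interval from -0.13 to 0.88) and 0.54 (from -0.14 to 1.22).

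Tsc2 encodes tuberin, the TSC subunit that inactivates RHEB. Its single probe set, 1452105_a_at, read 5.73, 5.64 and 5.84 in NTG pools and 5.09, 5.00 and 5.20 in SMC-IRF9-TG pools. The SD was 0.10 in each group, and the transgenic pools were all lower than the controls. The difference of -0.64 (SE 0.18, a 1.56-fold lower level) did not pass (limma adjusted p = 0.103), and it stayed between -0.70 and -0.59 with any pool left out. Its size was close to that of the lower Akt2 probe set and under the smallest called difference of the 28, 1.05.

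Mtor, the kinase of both mTOR complexes, had 3 probe sets that were lower by similar amounts, -0.36, -0.42 and -0.43, and none passed. Probe set 1436267_a_at read 5.15, 4.85 and 5.00 in NTG pools and 4.55, 4.61 and 4.57 in SMC-IRF9-TG pools, without overlap, and its 95% interval ran from -0.84 to -0.0049 (limma adjusted p = 0.22). The brightest, 1417592_at, overlapped, with NTG pools from 6.15 to 7.08 and transgenic pools from 6.29 to 6.41, and it differed by 0.18 when NTG pool 3 alone was the control. The third, 1446185_at, lay under the lower quartile of the arrays in the transgenic group, at 2.28, so that the size of its difference is uncertain. The pairs of Mtor probe sets differed by 0.065 and 0.069 in their genotype differences, with intervals from -0.66 to 0.79 and from -0.57 to 0.70. Rptor, which encodes RAPTOR, the scaffold that brings substrates to mTORC1, differed by 0.17 in its bright probe set 1434619_at (95% interval from -0.39 to 0.73), and its 2 others were dim in both groups.

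Across all 19 pairs, probe sets of 1 gene had opposite signs in 8, or 42.1%, against 42.3% of all pairs on the array. Of the 8 genes with several probe sets, Pik3ca, Akt1, Akt2 and Rptor had both signs. The order of genes by difference therefore depended on the probe set taken: Akt2 stood highest by 1424480_s_at, and Pik3r1 stood highest by the mean of probe sets. Of the 28 probe sets 4 lay under the lower quartile of the arrays in at least 1 group, and scanner files are not used here, so detection was not checked. The study's own list of changed SIRT1-related genes holds 4 of the 28, namely 1424480_s_at, 1425514_at, 1425515_at and 1452105_a_at. It covers a chosen set of genes and was made on these arrays, so it is not independent evidence of their direction. The paper also ran real-time PCR on genes from that list and reports that it bore out the array results. Its primers include Akt2 and Tsc2 but not Pik3r1, and the PCR values are not used here.

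**Figure D3:**
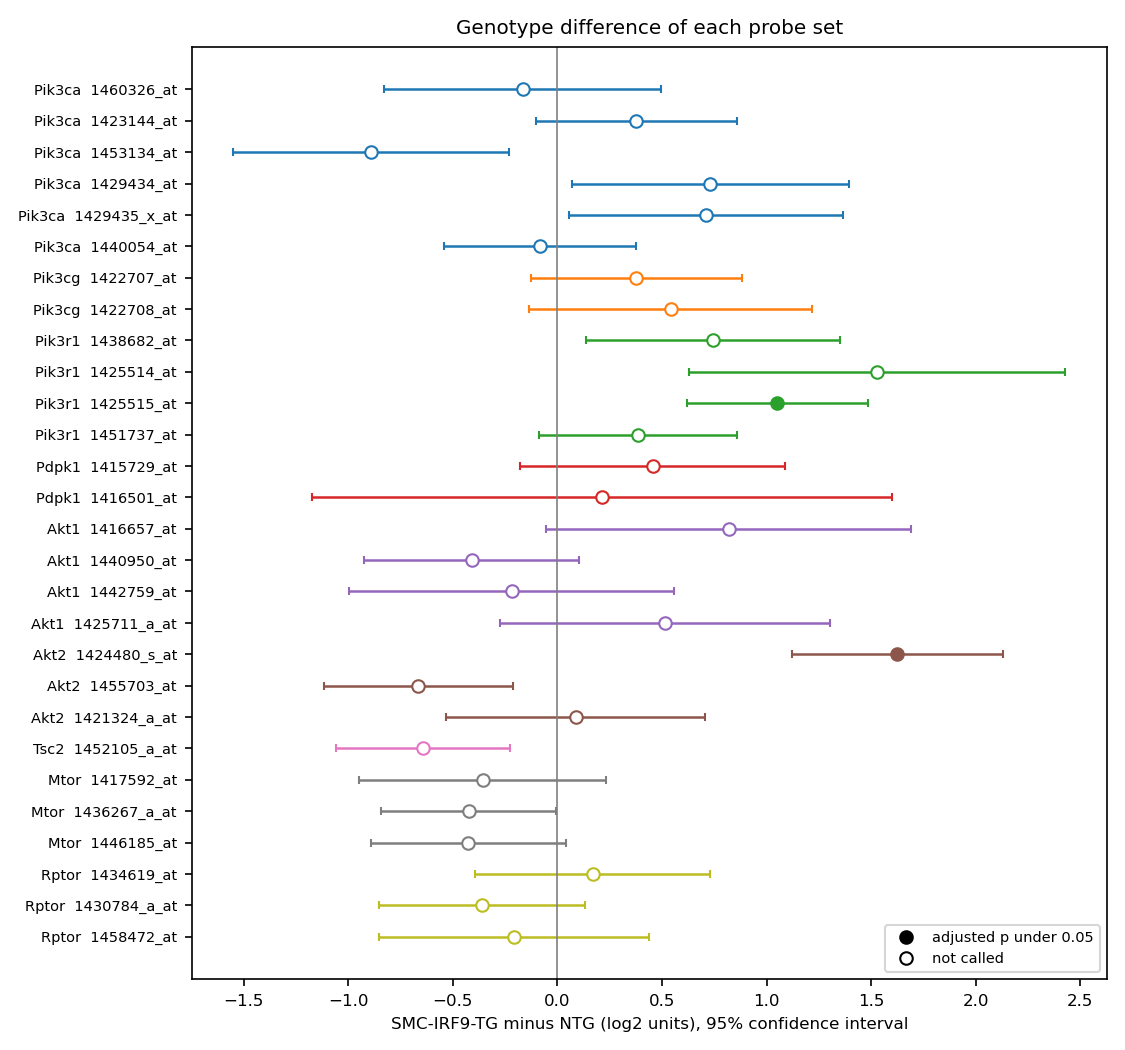
Difference between genotypes for each of the 28 probe sets (x axis, SMC-IRF9-TG minus NTG in log2 units) with its 95% confidence interval, coloured by gene and filled where the limma adjusted p is under 0.05. All 4 Pik3r1 probe sets lie above 0 and all 3 of Mtor below, while those of Pik3ca, Akt1, Akt2 and Rptor fall on both sides.

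**Figure D4:**
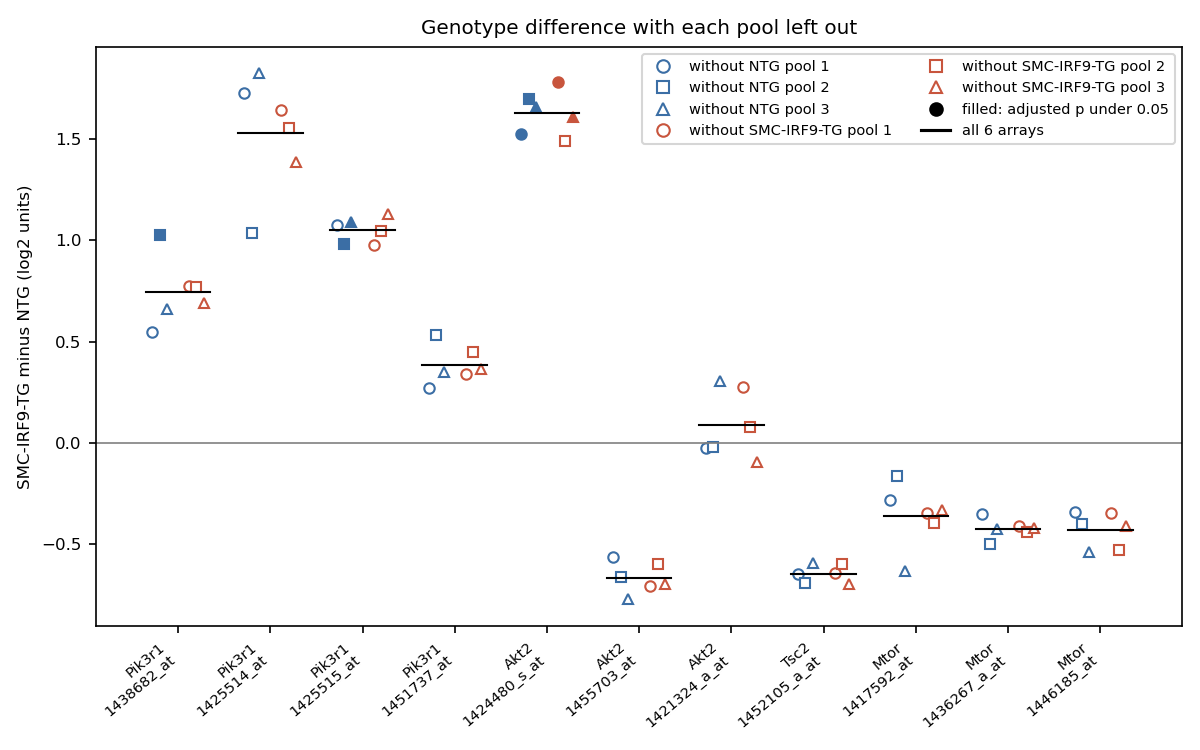
Difference between genotypes (y axis, log2 units) for the probe sets of Pik3r1, Akt2, Tsc2 and Mtor with each pool left out in turn; horizontal bars give the value with all 6 arrays and filled symbols an adjusted p under 0.05. Probe set 1424480_s_at of Akt2 stays between 1.49 and 1.78, while 1421324_a_at lies between -0.092 and 0.30.

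The rest of the pathway was described through 92 genes in 12 roles, of which 87 were measured by a probe set of a single gene and 5 are not analysed here. Taken by the brightest probe set, 4 were called higher (Akt2, Inpp5d, Sesn3 and Pdgfra), 1 lower (Pik3cd) and 82 not. That is 5.75% of the 87 and 5.13% of the 78 without the 9 genes above, against 3.62% of all genes taken by their brightest probe set. The median difference was 0.16, and -0.05 over all genes. Pik3r1 and Eif4e are not among the called genes here because in each the brightest probe set is not the called one.

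Among class I catalytic subunits, Pik3cd, which encodes p110δ of leukocytes, read 11.92, 12.02 and 11.36 in NTG pools and 10.77, 10.32 and 10.69 in SMC-IRF9-TG pools on 1443798_at. These groups were apart, with a difference of -1.17 (SE 0.24, limma adjusted p = 0.0444). Its 5 other probe sets differed by -0.36 to 0.31, none was called, and none exceeded 4.55 in any pool, so the call rests on 1 bright probe set. Inpp5d encodes SHIP1, a phosphatase of blood cells that removes a phosphate from PIP3, and read 4.68, 4.75 and 4.60 in NTG pools and 6.50, 5.77 and 6.09 in SMC-IRF9-TG pools. It was higher by 1.44 in the mean (SE 0.23, limma adjusted p = 0.0163), with every transgenic pool above the controls. Its second probe set differed by 0.34 and was not called.

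Pdgfra, a PDGF receptor of fibroblasts that signals through PI3K, was higher by 1.48 (SE 0.30, limma adjusted p = 0.0419), with a second probe set at 1.47 (0.0762 by the same adjustment) and a dim one at -0.42. It was also counted among the fibroblast markers. Sesn3, a sestrin that restrains mTORC1 when amino acids are scarce, was higher by 1.34 (SE 0.29, limma adjusted p = 0.0497), and its second probe set differed by 1.55 (limma adjusted p = 0.0859). Under quantile normalization only Pik3cd of these 4 genes was still called, after centring on the array median the other 3 were, and 0 of the 4 were called without NTG pool 1, SMC-IRF9-TG pool 1 or SMC-IRF9-TG pool 3. Macrophage and fibroblast markers were called higher in the same comparison, and their part in these 4 values was not tested.

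None of the other 7 roles had a gene called by its brightest probe set. Eif4e, of the mTORC1 substrates, had 1 of 4 probe sets called. Its brightest differed by 0.079, and the others by -0.26 to 1.695 with a smallest limma adjusted p of 0.00709. The medians of these 7 roles ran from -0.24 for LKB1 and AMPK (7 genes) to 0.40 for the TSC complex and RHEB (4 genes). The highest of all 12 was 0.47, for the AKT kinases, PDK1 and AKT phosphatases. In the group of Tsc2, Rheb, the GTPase that activates mTORC1, differed by 0.75 with separate groups but did not pass (limma adjusted p = 0.135). Among AKT substrates, Gsk3a and Foxo1 differed by -0.42 and -0.53 and neither passed. Of the mTORC1 substrates, Eif4ebp1, the repressor of cap-dependent translation, differed by -0.43 and Eif4b, an initiation factor, by 0.55. Both had separate groups and did not pass. Other probe sets differed by 0.065 and 0.16 for Eif4ebp1 and by -0.13 and 0.62 for Eif4b, and none was called. Rictor, the subunit that defines mTORC2, differed by 0.65 (limma adjusted p = 0.242) with overlapping pools. Its other probe sets differed by -0.73 to 0.69, and none was called.

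**Figure D5:**
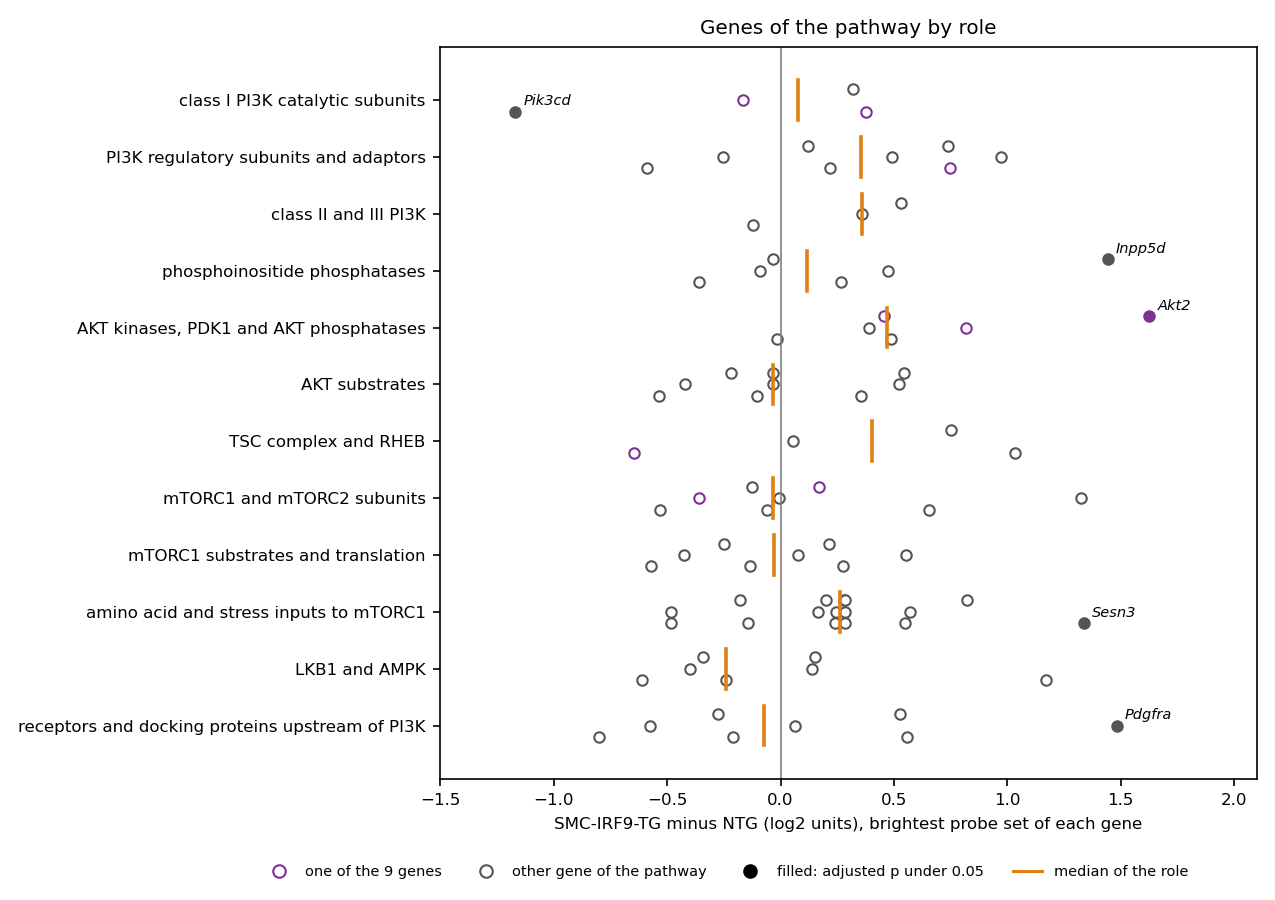
Difference between genotypes (x axis, SMC-IRF9-TG minus NTG in log2 units) of 87 pathway genes by their brightest probe set, in 12 roles (y axis), with the median of each role as an orange bar and called genes filled and named. Akt2 at 1.63, Pdgfra, Inpp5d and Sesn3 stand at the right and Pik3cd at -1.17 at the left; the other 82 were not called.

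The 2 genes whose pattern over the 6 arrays was most like each called probe set were listed as a description. For 1424480_s_at of Akt2 these were Wls (Pearson r = 0.9996), which encodes a carrier of WNT proteins, and Gpx7 (0.997), a glutathione peroxidase gene. For 1425515_at of Pik3r1 they were Tmod3 (0.998), a tropomodulin gene, and Rgs2 (0.998), a regulator of G-protein signalling. Over 6 arrays, 3.55% and 4.33% of probe sets of a single gene had r above 0.9 with the Akt2 and the Pik3r1 probe set.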

How the data were processed

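RNA of 6 pools was hybridised to Affymetrix mouse whole-genome arrays. The authors deposited log2 probe set levels; the submitters' processing notes name RMA and Affymetrix Expression Console, with no version given in the sources used here. Column medians ran from 3.42 to 3.66 and no further normalization was applied. Of 45101 probe sets, 64 controls were left out and 45037 tested; 34945 are paired with 1 gene, 932 with several and 9160 with none, and only the first were named. Members and gene lists were chosen with earlier results of these data known. The genotype fit used limma 3.58.1 with default lmFit and eBayes, 2-sided and Benjamini-Hochberg adjusted, in R 4.3.3, after a test on simulated data; intervals are 95%. The methods name a t-test for the whole study and none for the array, so it served as an alternative. Permutation tests were exact. Tables and figures used Python 3.11.15, numpy 2.4.6, pandas 2.3.3 and matplotlib 3.10.9. All members were named; in each pathway role up to 4 called genes, or the 2 brightest, could be named, and not all are printed. The cell marker lists also held T cell, B cell, neutrophil, endothelial, adipocyte, skeletal muscle, nerve, and thyroid and epithelium genes; of these only 1 endothelial gene was called higher. Alternatives were centring on the array median, quantile normalization, a filter that drops probe sets with a mean below the array-wide median, a trended and robust prior, array weights, a block for the replicate number, that t-test, each pool left out and the mean of a gene's probe sets. NTG pool 3 alone as control and SMC-IRF9-TG pool 3 alone were added after seeing the data, leaving out the other pools because of high Xist or low poly-A controls. The number of arrays limits the precision.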

Additional observations from a re-analysis of the deposited data

How the results depend on the processing

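Of the 28 probe sets 2 were called, of the 87 pathway genes 5 and of the 19 pairs 2. Under quantile normalization these counts were 1, 3 and 1. Under the methods' t-test they were 0, 0 and 0 after Benjamini-Hochberg adjustment, where 1 probe set of the whole array passed. Unadjusted, 6 of the 28 had a t-test p under 0.05, and so did 8364 of all 45037. With each pool left out the 3 counts ran from 0 to 3, from 1 to 7 and from 0 to 2. The lowest count for the 28, 0, came without SMC-IRF9-TG pool 2, where the array had 320 calls against 1237. There 8 of the 28 had an unadjusted limma p under 0.05, and so did 6028 of all 45037. With NTG pool 3 alone as control Akt2 1424480_s_at differed by 1.56 and the Akt2 pairs by 2.01 and 1.91. With SMC-IRF9-TG pool 3 alone against NTG Akt2 1424480_s_at differed by 1.665. Counts of calls and p-values are not given for these fits, which have 1 array in a group and so no measure of its spread. By the mean of a gene's probe sets 1 of 9 genes was called. Centring, leaving out probe sets whose mean over 6 arrays was below the median of all (21 of the 28 left), the trended and robust prior and array weights each called the same 2 probe sets. Array-wide, 1608 probe sets were called after centring, 700 after quantile normalization and 730 with the block.

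Deviations of same-numbered pools correlated at r = -0.15, -0.001 and 0.027, and those of different-numbered pools at -0.125 to 0.127. With 3 arrays in each group these values cannot decide whether the numbers pair the samples. With the replicate number as a block 1 probe set and 3 genes were called; 1425515_at of Pik3r1 kept its difference of 1.05 at an adjusted p of 0.0747, and 1424480_s_at was still called.

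Differences that changed sign were all of probe sets that were not called. Under quantile normalization Pik3ca 1440054_at was 0.17, Pdpk1 1416501_at -0.079, Rptor 1434619_at -0.13 and Rptor 1458472_at 0.021. After centring Pik3ca 1440054_at was 0.011, and with array weights Pdpk1 1416501_at was -0.15. With NTG pool 3 alone Pik3ca 1460326_at was 0.29, Pdpk1 1416501_at -0.29, Akt2 1421324_a_at -0.35 and Mtor 1417592_at 0.18. By gene mean Pik3ca was 0.11 and Rptor -0.13. With a pool left out, Akt2 1421324_a_at ran from -0.092 to 0.30, Pdpk1 1416501_at from -0.44 to 0.74, Pik3ca 1460326_at from -0.40 to 0.16, Rptor 1434619_at from -0.028 to 0.38, Rptor 1458472_at from -0.43 to 0.033 and Akt1 1442759_at from -0.49 to 0.20. The causes were not tested.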
